A study of Mus musculus with 8 samples.

Results

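The genes described are 7 members of the mouse Ly6 family, Ly6a, Ly6c1, Ly6c2, Ly6d, Ly6e, Ly6g and Ly6i, out of 53465 gene identifiers in the deposited tables. They were taken by symbol, and the family was chosen by measured values, the FPKM of the mosaic comparison, in which Ly6a had shown one of the largest falls on Brg1 loss in mosaic mice. All 7 were found, and 5 of them (Ly6a, Ly6c1, Ly6c2, Ly6d and Ly6e) reached 5 CPM (reads of a gene scaled to a common library total) in at least 1 library. Ly6g and Ly6i never did.

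RNA was sequenced from Treg cells of the spleen and lymph nodes of mice given as C57BL/6 and aged 3 to 4 weeks, in 8 libraries with 1 library per group. Brg1 (gene symbol Smarca4) is the ATPase of the BAF chromatin remodeling complex, and the study asked how its loss and its return change Treg cells. 6 libraries formed the total Treg experiment and 2 the aTreg experiment, in which activated Treg cells were gated as CD44hi CD62Llo. The 2 experiments were sequenced and scaled separately, so values are compared only within each.

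All genotypes carried R26CAG-FlpoER, which drives a TAM-dependent Flp recombinase in every tissue. The WT library is given as BrgF/+ with Foxp3YFP-Cre/+. Mosaic females carried BrgF/ΔR, where F is floxed and ΔR is a gene trap that Flp can remove. In the mosaic females the X-linked Foxp3YFP-Cre is active in a fraction of Treg cells. This gave a Brg1-deleted subset (YFP+) and a Brg1-expressing subset (YFP-), labelled Foxp3+/+, from animals without disease. The rKO1 mice carried BrgF/ΔR with Foxp3YFP-Cre/YFP-Cre, so that every Treg cell deleted Brg1 and the animals were inflamed. They were either left untreated or given a low dose of tamoxifen (TAM), and on Day 7 the GFP+ Brg1-deleted and GFP- Brg1-reexpressed subsets were sorted. The label of the reexpressed total Treg library reads BrgF/+ with Foxp3YFP-Cre/YFP-Cre. Both aTreg libraries are titled as subsets of TAM-treated rKO1 mice sorted on Day 7. The one titled Brg1-deleted is described as BrgF/F and its column is headed WT, and the one titled Brg1-reexpressed as BrgF/+, both with Foxp3YFP-Cre/YFP-Cre. They are called by their titles, as the libraries labelled Brg1-deleted and Brg1-reexpressed. The number of animals behind a library was not stated in the labels.

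With 1 library per group no difference can be set against a spread between animals, and no test was made. The intervals given are exact 95% binomial intervals of the read counts of 2 libraries. They cover counting error only. Since the cDNA was amplified without molecular identifiers, they can be too narrow even for that. A gene is called where its FPKM (fragments scaled by exon length and by library total) differed at least 2-fold and at least 1 of the 2 libraries had 5 CPM. The libraries held between 16324017 and 24093553 reads assigned to genes.

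Smarca4 was read first as a check of the labels. Its FPKM was 14.8 in WT, 12.1 in the mosaic Brg1-expressing and 7.44 in the mosaic Brg1-deleted library. In rKO1 mice it was 7.34 untreated, 6.13 in the Brg1-deleted and 9.52 in the Brg1-reexpressed subset after TAM. The 3 total Treg libraries labelled as deleted were thus the lowest, although the value sums all exons, among them exons that both altered alleles still transcribe. In aTreg cells it was 11.1 in the library labelled Brg1-deleted and 9.02 in the library labelled Brg1-reexpressed, the reverse of the labelled order. This 1.23-fold difference (1.14 to 1.34) is close to those between libraries of the same Brg1 status. WT was 1.22-fold above mosaic Brg1-expressing cells, and untreated rKO1 cells 1.2-fold above the rKO1 Brg1-deleted cells after TAM. With 1 library per group it cannot decide whether the labels hold.

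All 6 Treg markers (Foxp3, Il2ra, Ikzf2, Ctla4, Cd4 and Cd3e) reached 5 CPM in every library, and Foxp3 ran from 13.4 to 137 FPKM. Among markers of other cells, the erythroid list, led by the globin genes Hba-a1 and Hbb-bs, stood apart in the aTreg library labelled Brg1-reexpressed, where it took 1.89% of reads against 0.109% in the other aTreg library and at most 0.0659% elsewhere. Over the 8 libraries the summed FPKM of the plasma cell list lay between 4.2 and 35.6, of the CD8 T cell list between 4.39 and 16.6, of the NK cell list between 0.0557 and 5.71, and of the plasmacytoid dendritic cell list between 210.0 and 464. The last sum is nearly all Bst2 (206 to 461 FPKM), an interferon-inducible gene, while Siglech was at 0.783 FPKM or less. The part of these cells in the results was not tested, and in bulk libraries fewer cells of a type and less RNA per cell cannot be told apart.

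Ly6 proteins are small surface proteins with a three-fingered fold of disulfide-linked loops, held in the membrane by a glycosylphosphatidylinositol (GPI) anchor. Several are induced by interferons and serve as surface markers of blood cell types. In T cells, Ly6A (Sca-1) and Ly6C increase with activation or memory, and Ly6C has been used to divide Treg cells into subsets.

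The 7 genes lay in 1 cluster on chromosome 15, chr15:74762056-75159126 of GRCm38 (mm10), a span of 397 kb that holds 25 annotated genes, 14 of them protein coding. Ly6a (ENSMUSG00000075602) lay at chr15:74994877-74998031 on the minus strand. The start sites of Ly6i and Ly6e were 14.6 and 43.0 kb from it toward lower coordinates, and that of Ly6d was 234.4 kb from it. On the other side lay Ly6c1 at 50.8 kb, Ly6c2 at 113.9 kb and Ly6g at 157.2 kb. None of the 7 shared exon bases with another annotated gene.

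Since the members are close copies, the start of the coding sequence of the 4 most similar expressed genes is shown to make visible how far their reads can be told apart. The lines give coding bases 1 to 150, counted from the A of the start codon of the principal GENCODE M21 transcript, and capitals mark bases that differ from Ly6c1 in a pairwise alignment.
Ly6c1: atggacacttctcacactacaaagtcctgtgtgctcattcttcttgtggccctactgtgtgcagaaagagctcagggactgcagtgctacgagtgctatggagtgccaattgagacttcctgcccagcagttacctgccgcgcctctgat
Ly6c2: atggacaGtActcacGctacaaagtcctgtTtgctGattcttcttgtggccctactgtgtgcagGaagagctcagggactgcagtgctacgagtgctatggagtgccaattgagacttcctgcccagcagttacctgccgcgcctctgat
Ly6a: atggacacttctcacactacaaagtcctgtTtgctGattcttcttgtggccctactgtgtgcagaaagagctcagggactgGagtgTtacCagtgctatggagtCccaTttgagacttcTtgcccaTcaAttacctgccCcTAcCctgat
Ly6i: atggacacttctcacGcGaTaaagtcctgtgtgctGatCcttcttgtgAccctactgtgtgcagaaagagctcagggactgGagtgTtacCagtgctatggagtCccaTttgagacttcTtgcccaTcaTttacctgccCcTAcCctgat
In this stretch Ly6c2 differed from Ly6c1 at 6 bases, Ly6a at 14 and Ly6i at 18. Over the whole coding sequence Ly6c1 and Ly6c2 were 97.7% identical (384 of 393 bases), Ly6a and Ly6i 86.3%, and Ly6a and Ly6c1 81.8%. Ly6d and Ly6e were further away, at 49.9% and 53.5% of aligned positions against Ly6a. Of the 150-base windows of Ly6c1 transcripts, a length equal to 1 read, 2.29% were found in Ly6c2 as well, and of the Ly6c2 windows 1.42% in Ly6c1. No 150-base window of Ly6a, Ly6d, Ly6e, Ly6g or Ly6i occurred in another gene. Of windows of 50 bases, 32.8% in Ly6c1, 19.0% in Ly6a and 14.5% in Ly6c2 were shared, so that reads with a short aligned part could be split between these genes.

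Ly6a, which encodes the stem cell antigen Sca-1, had 714 FPKM in WT, 538 in the mosaic Brg1-expressing and 18.5 in the mosaic Brg1-deleted library. In rKO1 mice it had 143.5 FPKM untreated, 374 in the Brg1-deleted and 955 in the Brg1-reexpressed subset after TAM. The 3 deleted libraries were the lowest of the 6, and among them the mosaic one was the lowest and the TAM-treated rKO1 one the highest. No 2 neighbours in this order had a counting interval that held equality, the closest being WT over the mosaic Brg1-expressing library at 1.33-fold (1.3 to 1.36).

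**Figure D1:**
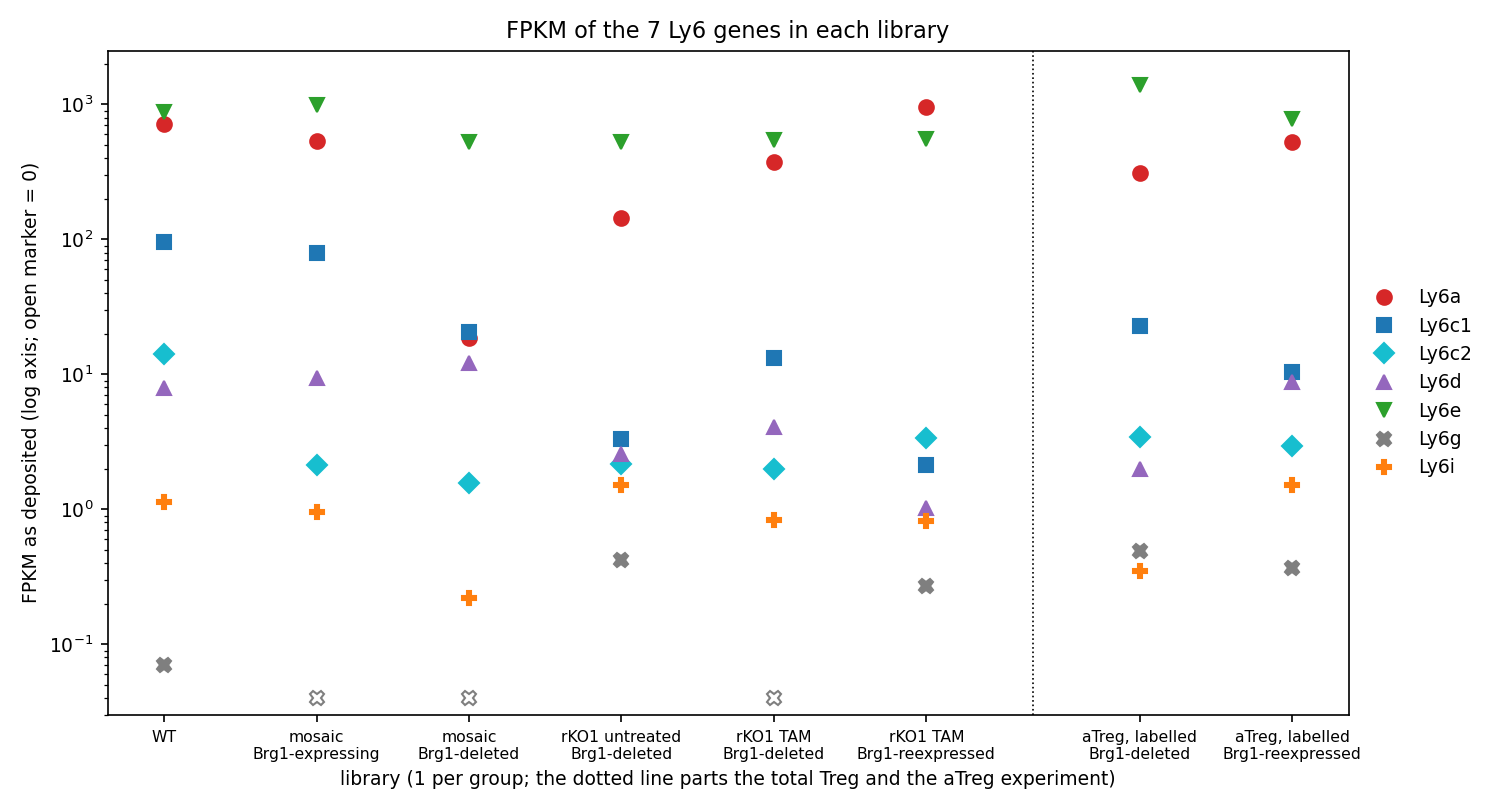
FPKM of each of the 7 Ly6 genes (log axis) in each of the 8 libraries, 1 point per library and an open marker for 0. Ly6a drops to 18.5 in the mosaic Brg1-deleted library, Ly6e stays between 525.5 and 990.4 in total Treg cells, and Ly6c1 is at 2.12 where Ly6a is highest.

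In the mosaic females, the comparison by which the family was chosen, Ly6a was 29.0-fold higher in the Brg1-expressing library (26.6 to 31.7), log2 4.86. It was 10th in order of size among the 10002 genes measured there. This is a description of the choice and no evidence for it. 2 of the 5 Ly6 genes measured in this comparison were called, where 5.93% of all genes measured were, 3.83% higher and 2.1% lower in the Brg1-expressing library. Of these calls 64.6% were higher there, and 50.2% when libraries were scaled to total reads. Against WT, which shares the mosaic Brg1-deleted library, Ly6a was 38.5-fold higher in WT (35.3 to 42.1), and 3 of 5 genes were called against 13.6% of all genes.

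The rKO1 subsets after TAM share no library with the mosaic comparison. There Ly6a was 2.55-fold higher in the Brg1-reexpressed library (2.49 to 2.62, log2 1.35). 2 of the 4 Ly6 genes measured were called, where 12.7% of all genes measured were, 6.19% higher and 6.48% lower. Of these calls 48.9% were higher in the reexpressed library, and 23.0% when scaled to total reads, which moved the median log2 fold of all genes from 0.00 to -0.30. In aTreg cells Ly6a had 311 FPKM in the library labelled Brg1-deleted and 528 in the one labelled Brg1-reexpressed, a 1.70-fold difference (1.65 to 1.75) below the 2-fold limit. 2 of the 5 Ly6 genes measured in aTreg cells were called, where 6.36% of all genes were, 4.07% higher and 2.29% lower in the library labelled Brg1-reexpressed.

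Ly6a also differed between libraries with the same Brg1 label. Brg1-deleted Treg cells of rKO1 mice had 2.61-fold more after TAM than untreated (2.5 to 2.72), a comparison in which 2 of 4 Ly6 genes and 4.69% of all genes were called. Untreated rKO1 Treg cells had 7.75-fold more than mosaic Brg1-deleted cells (7.06 to 8.51), which rests on the low mosaic value by which the family was chosen and is a description only. There 3 of 5 Ly6 genes and 15.2% of all genes were called. Among the libraries that expressed Brg1, the reexpressed rKO1 library was 1.78-fold above the mosaic one, which was not called. 2 of 5 Ly6 genes and 21.2% of all genes were called there. Between the mosaic Brg1-expressing and WT libraries 1 of 5 Ly6 genes was called, Ly6c2, against 9.17% of all genes. Inflammation and the sort for YFP differed between some of these groups and cannot be told apart from the genotype.

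**Figure D2:**
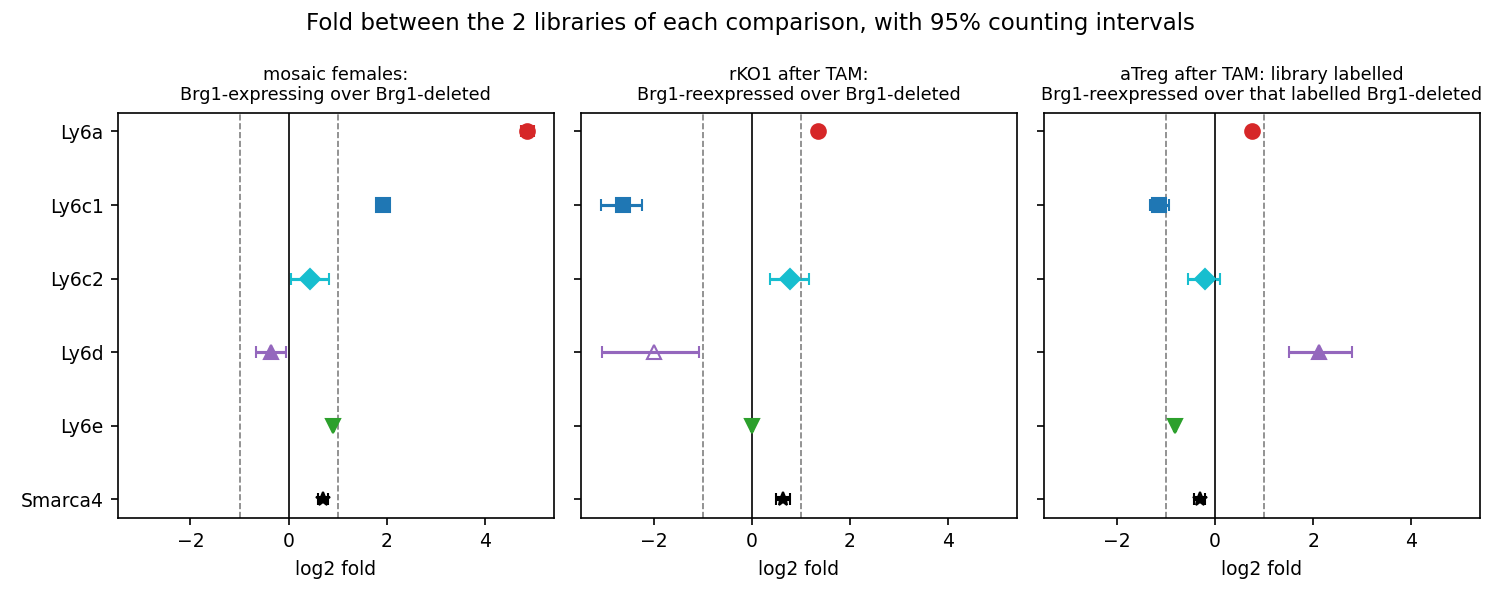
log2 fold of the 5 measured Ly6 genes and Smarca4 in 3 comparisons, with 95% counting intervals, dashed lines at 2-fold and an open marker for a gene under 5 CPM in both libraries. Ly6a lies above 0 in all 3, Ly6c1 at 1.93 in the mosaic females and at -2.63 in rKO1 mice, and Smarca4 below 0 in aTreg cells.

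Ly6c1 and Ly6c2 encode the Ly6C antigens, which mark inflammatory monocytes and memory T cells, and Ly6c1 is also known from endothelial cells. Ly6c1 had 95.9 FPKM in WT, 78.8 in the mosaic Brg1-expressing and 20.7 in the mosaic Brg1-deleted library. In rKO1 mice it had 3.33 FPKM untreated, 13.2 in the Brg1-deleted and 2.12 in the Brg1-reexpressed subset after TAM. All 3 rKO1 libraries were therefore below all 3 others, and the library with the most Ly6a had the least Ly6c1.

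The direction of Ly6c1 differed between the comparisons. In the mosaic females it was 3.81-fold higher in the Brg1-expressing library (3.53 to 4.13). In rKO1 mice after TAM it was 6.23-fold lower in the Brg1-reexpressed library (4.69 to 8.40). In aTreg cells it had 22.8 FPKM in the library labelled Brg1-deleted and 10.4 in the one labelled Brg1-reexpressed, 2.19-fold lower (1.92 to 2.5). It was 3.95-fold higher in rKO1 Brg1-deleted cells after TAM than untreated, and 37.2-fold lower in the reexpressed rKO1 than in the mosaic Brg1-expressing library (28.6 to 49.4). Of the 5 endothelial markers, 1 reached 5 CPM in each library, Cdh5, Kdr and Tek were at 0 reads in 3 of the 8 libraries together, and the summed FPKM of 5.59 to 14.2 was highest in the mosaic Brg1-deleted library and mostly Pecam1 (4.8 to 14.1 FPKM). Of 4 monocyte and macrophage markers measured in rKO1 mice after TAM, 3 were called lower in the Brg1-reexpressed library, against 6.48% of all genes. In the mosaic females 0 of 2 were called, and in aTreg cells 1 of 4, against the direction of Ly6c1. The NK cell marker Ncr1 had 4.75 FPKM in rKO1 Brg1-deleted cells after TAM and 0 in Brg1-reexpressed ones. It had 3.24 in mosaic Brg1-expressing, 0.0273 in mosaic Brg1-deleted and 0.299 in WT cells. Their part in Ly6c1 was not tested.

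Ly6c2 was high in 1 library, WT, with 14.1 FPKM. The other total Treg libraries lay between 1.57 in mosaic Brg1-deleted and 3.40 in rKO1 Brg1-reexpressed cells, and 3 of the 5 neighbouring pairs in the order had an interval that held equality. The aTreg libraries had 3.45 and 2.97 FPKM. WT was 6.66-fold above the mosaic Brg1-expressing library (5.47 to 8.17) and 9.03-fold above the mosaic Brg1-deleted library (7.31 to 11.3). Between the 2 mosaic libraries the difference was 1.36-fold (1.03 to 1.78) and not called. The 8 monocyte and macrophage markers summed to 327 FPKM in WT and to 28.4 to 104 in the other total Treg libraries, with none at 0 reads there. The WT sum is nearly all Lyz2 (313 FPKM). Between WT and the mosaic Brg1-expressing library 3 of 4 measured markers were called, all higher in WT like Ly6c2. Of all genes 9.17% were called there in either direction. Adgre1 had 2.33 against 0.0888 FPKM, Csf1r 1.79 against 0.384 and Lyz2 313 against 87.2. Other markers than Lyz2 were higher in untreated rKO1 than in WT cells, such as Csf1r at 3.78 FPKM and Adgre1 at 3.32, where Ly6c2 was low. In aTreg cells the 8 markers summed to 334 and 488, where Ly6c2 was low. Their part in the Ly6c2 values was not tested. The ratio of Ly6c1 to Ly6c2, which does not depend on the scaling, ran from 0.622 in the rKO1 Brg1-reexpressed to 37.1 in the mosaic Brg1-expressing library.

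Ly6e encodes an interferon-inducible antigen first described on immature thymocytes and was the most abundant of the 7 in 7 of the 8 libraries. It had 886 FPKM in WT, 990.4 in the mosaic Brg1-expressing and 525.5 in the mosaic Brg1-deleted library. In rKO1 mice it had 526 FPKM untreated, 548 in the Brg1-deleted and 553 in the Brg1-reexpressed subset after TAM. The WT and mosaic Brg1-expressing libraries were above the other 4, whose neighbours in the order differed by at most 1.04-fold.

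Ly6e was 1.88-fold higher in the mosaic Brg1-expressing than in the mosaic Brg1-deleted library (1.86 to 1.91), below the 2-fold limit, and at 1.01-fold in rKO1 Brg1-reexpressed over Brg1-deleted cells (0.993 to 1.02), with a log2 fold of 0.01 that was -0.29 when scaled to total reads. In aTreg cells it had 1387 FPKM in the library labelled Brg1-deleted and 786 in the one labelled Brg1-reexpressed, 1.76-fold lower in the latter (1.75 to 1.78). Over the 6 total Treg libraries its highest value was 1.88 times its lowest, against 51.6 times for Ly6a, 45.3 for Ly6c1, 11.8 for Ly6d and 9.03 for Ly6c2. Of 11099 genes at 5 CPM in a total Treg library, 1.49% had a wider range than Ly6a and 55.9% a wider one than Ly6e. The lowest Ly6a value is that of the mosaic Brg1-deleted library used in the choice, so its range is a description only.

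The ratio of Ly6a to Ly6e on the FPKM scale, per length and free of the scaling between libraries, was 0.805 in WT, 0.543 in the mosaic Brg1-expressing and 0.0353 in the mosaic Brg1-deleted library. In rKO1 mice it was 0.273 untreated, 0.682 in Brg1-deleted and 1.73 in Brg1-reexpressed cells after TAM, the library in which Ly6a exceeded Ly6e. In aTreg cells it was 0.224 in the library labelled Brg1-deleted and 0.672 in the one labelled Brg1-reexpressed. Ly6a and Ly6e together made up between 93.1% and 99.5% of the summed FPKM of the 7 genes.

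Ly6d encodes a marker of early B lineage cells and had 7.88 FPKM in WT, 9.43 in the mosaic Brg1-expressing and 12.1 in the mosaic Brg1-deleted library. In rKO1 mice it had 2.58 FPKM untreated, 4.11 in the Brg1-deleted and 1.02 in the Brg1-reexpressed subset after TAM, from 34, 51 and 12 reads. As for Ly6c1, all 3 rKO1 libraries were below the 3 others. It was 4.69-fold lower in untreated rKO1 than in mosaic Brg1-deleted cells (3.25 to 6.94) and 9.23-fold lower in rKO1 Brg1-reexpressed than in mosaic Brg1-expressing cells (5.13 to 18.3).

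Within the rKO1 mice after TAM Ly6d did not reach 5 CPM in either subset. In aTreg cells it had 2.0 FPKM (26 reads) in the library labelled Brg1-deleted and 8.80 (131 reads) in the one labelled Brg1-reexpressed, 4.40-fold higher (2.87 to 6.98). The 7 B cell markers summed to 31.5 to 55.5 FPKM in WT and mosaic libraries and to 9.01 to 19.8 in the rKO1 total Treg libraries, with Pax5 at 0 reads in the untreated and the Brg1-reexpressed one. In aTreg cells they summed to 64.0 in the library labelled Brg1-deleted and 43.1 in the other, with Pax5 at 0 reads in both. These sums are mostly Cd79b, at 58.4 and 35.9 FPKM. Ms4a1 was the 1 B cell marker of the 3 measured that was called, at 0.213 in the library labelled Brg1-deleted and 1.09 in the other, in the direction of Ly6d, and Blk had 0.255 and 0.63 FPKM without reaching 5 CPM. Their part in the Ly6d values was not tested.

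**Figure D3:**
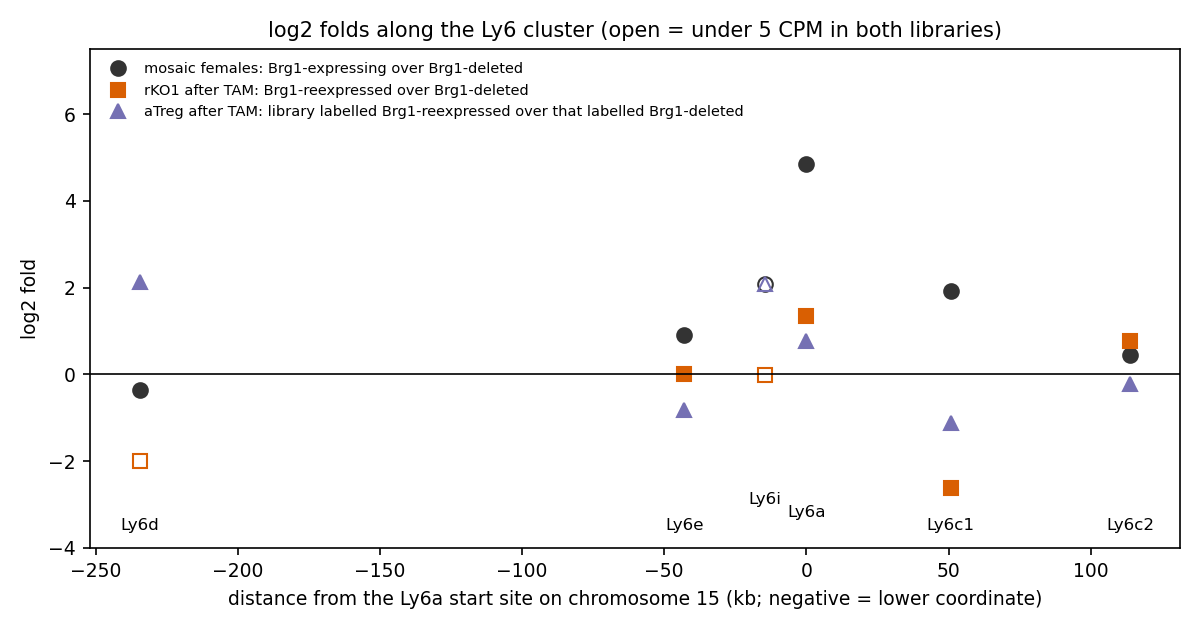
log2 fold of 6 Ly6 genes in 3 comparisons against the distance of their start sites from that of Ly6a in kb, with open markers for genes under 5 CPM in both libraries. Ly6c1, 50.8 kb from Ly6a, has log2 folds of 1.93, -2.63 and -1.13, and Ly6d, 234.4 kb away, is at -0.36 in the mosaic females and 2.13 in aTreg cells.

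Ly6g and Ly6i were near the limit of detection. Ly6g, the antigen by which neutrophils are recognized, had 0 to 7 reads in the total Treg libraries and 8 and 7 in the aTreg libraries, with 0 reads in 3 libraries, which allows up to 3 reads or 0.191 FPKM. The 9 neutrophil markers summed to 0.609 to 5.08 FPKM in the WT and mosaic libraries, 20.6 to 45.2 in the rKO1 total Treg libraries and 85.1 and 76.8 in aTreg cells. Ly6i had 6 reads in the mosaic Brg1-deleted library and 15 to 31 in the other total Treg libraries. The mosaic Brg1-expressing library, with 23 reads, was 4.38-fold higher than the Brg1-deleted one (1.73 to 13.2). In aTreg cells it had 7 reads in the library labelled Brg1-deleted and 35 in the other.

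Among 43 further genes of the Ly6 and urokinase receptor superfamily, 0 to 3 were measured in a comparison. Ly6k, in the same cluster, had 35.8 FPKM in WT, 7.53 and 6.85 in the mosaic Brg1-expressing and Brg1-deleted libraries, and 7.02, 14.6 and 3.29 in the untreated, Brg1-deleted and Brg1-reexpressed rKO1 libraries. Of its exon bases 47.6% overlap other annotated genes, and strand was not stated for the counting. Plaur, the urokinase receptor, had 2.04 FPKM in rKO1 Brg1-deleted cells after TAM and 0.131 to 0.643 in the other 7 libraries. Both were called lower in the Brg1-reexpressed than in the Brg1-deleted rKO1 library, where 6.48% of all genes measured were. They were the 2 of the 43 genes measured there. Both reached 5 CPM in the Brg1-deleted library only, so the filter left little room for a call in the other direction.

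The GPI-anchor assembly genes, which build the anchor that Ly6 proteins need, are given beside the shares of all genes called in the same comparisons, 5.93%, 12.7% and 6.36%. Of 26 measured in the mosaic females, 0 were called higher and 1 lower in the Brg1-expressing library, Pign at 0.459 against 0.943 FPKM. Of 27 in rKO1 mice after TAM, 1 was called higher in the Brg1-reexpressed library, Pgap3 at 2.52 against 1.13 FPKM, and 0 lower. Of 27 in aTreg cells 0 were called. Their median log2 fold was -0.11, 0.21 and -0.18 in the 3 comparisons, where the median of all genes measured was 0.02, 0.00 and -0.10 and that of the Ly6 genes 0.91, 0.39 and -0.21.

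Of 20 interferon-inducible genes, measured because several Ly6 genes respond to interferon, 1 was called higher in the mosaic Brg1-expressing library. It was Cxcr3, a chemokine receptor, with 44.7 against 2.4 FPKM. In rKO1 mice after TAM 2 of 18 were called higher in the Brg1-reexpressed library, namely Cxcr3 at 323 against 63.5 FPKM and the GTPase gene Iigp1 at 45.2 against 20.1, and 1 was called lower, the deubiquitinase gene Usp18 at 6.67 against 20.8. In aTreg cells 1 of 20 was called higher in the library labelled Brg1-reexpressed, the antiviral gene Rsad2 at 15.5 against 3.26 FPKM. The median log2 fold of the list was -0.01, 0.10 and -0.19 in the 3 comparisons, where 5.93%, 12.7% and 6.36% of all genes were called.

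Between rKO1 and mosaic libraries with the same Brg1 label more of the 20 were called. In untreated rKO1 over mosaic Brg1-deleted cells 3 were called higher and 8 lower, with a median log2 fold of -0.47, where 9.5% of all genes were called higher and 5.75% lower. Cxcr3 had 95.5 against 2.4 FPKM, Rsad2 0.313 against 4.84, Ifit3 3.04 against 29.3 and Ifit1 6.34 against 48.9. In rKO1 Brg1-reexpressed over mosaic Brg1-expressing cells 2 were called higher and 7 lower, with a median of -0.14, where 11.5% of all genes were called higher and 9.75% lower. Of all genes called, 62.3% were higher in the first of these comparisons and 54.1% in the second, and 72.8% and 42.5% when scaled to total reads. Ly6a was higher in the rKO1 library of both comparisons, and the interferon genes named other than Cxcr3 were lower in the first. In the other 3 comparisons 1 to 3 of the list were called.

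The patterns of the Ly6 genes over the 6 total Treg libraries were compared as log2(FPKM + 0.01). As a description over 6 libraries that share their scaling, Pearson's r was 0.86 for Ly6c1 with Ly6d, 0.82 for Ly6c1 with Ly6e, 0.05 for Ly6a with Ly6c1 and -0.46 for Ly6a with Ly6d. The 10 genes with a range of at least 1 on the log2 scale that were most like Ly6a were Itgb1 (r = 0.993), Rwdd1, Dnph1, Ccr3, Szrd1, Ccr10, Cdc42ep3, Angptl4, Cfap298 and Ttc39c (r = 0.970). None lay on chromosome 15. The Ly6a pattern includes the low mosaic Brg1-deleted value by which the family was chosen, so this likeness is a description only. Itgb1, the integrin beta 1 chain, had 40.9 FPKM in WT, 6.75 in mosaic Brg1-deleted and 44.9 in rKO1 Brg1-reexpressed cells. Ccr10, a chemokine receptor, had 8.85, 0.244 and 32.6 FPKM in these 3 libraries. In aTreg cells, where Ly6a had a log2 fold of 0.76, most of the 10 did not follow it. Rwdd1, Ccr3 and Ttc39c were at 0.24, 0.72 and 0.74, and Itgb1, Dnph1 and Szrd1 at -0.07, 0.03 and -0.04. Cfap298, Cdc42ep3, Ccr10 and Angptl4 were at -0.28, -0.63, -0.77 and -0.77.

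**Figure D4:**
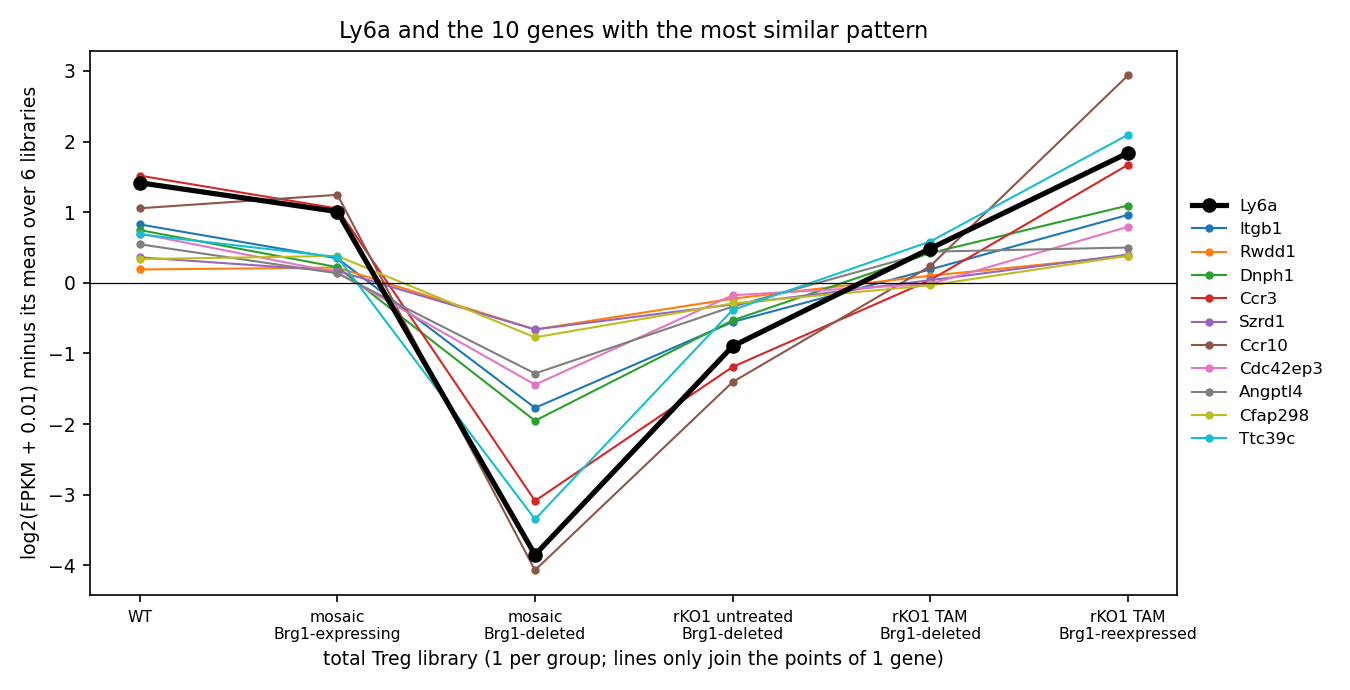
log2(FPKM + 0.01) minus its mean over the 6 total Treg libraries for Ly6a (thick black line) and the 10 genes with the highest Pearson r to it. All 11 are lowest in the mosaic Brg1-deleted library, and Ly6a, Ccr3, Ccr10 and Ttc39c span the widest ranges. The 10 were picked for likeness to Ly6a, so the shared low point follows from that selection.

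Most like Ly6d were Foxp1 (r = 0.998), a transcription factor of quiescent T cells, Hvcn1, Tmem121b, Actn1 and Il6st. Foxp1 had 20.7 FPKM in mosaic Brg1-deleted and 4.28 in rKO1 Brg1-reexpressed cells. In aTreg cells Foxp1 was lower in the library labelled Brg1-reexpressed, at 6.36 against 11.6 FPKM, where Ly6d was higher. Most like Ly6c1 were Laptm4b (r = 0.987), Ecm1, Fam49a, Btbd11 and Cbr1. In aTreg cells their log2 folds were between -0.98 and -0.48 in the direction of the library labelled Brg1-deleted, none of them called. Ecm1, a secreted matrix protein, came to 48.4 against 95.5 FPKM. Most like Ly6e were Ckb (r = 0.982), Cxcr5, Lzts2, Bambi-ps1 and Dhrs3, and most like Ly6c2 were Gps2 (r = 0.977), 1700026D11Rik, Tdg, Ube2l6 and Ftl2-ps. These were the highest r among 5502 genes compared over 6 libraries, and they were not tested.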

How the data were processed

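Treg RNA was amplified with a SMART-Seq v4 kit and sequenced as paired reads of 150 bases. The authors deposited FPKM values per Ensembl gene. Per the labels HISAT2 2.0, StringTie 1.3.3b, featureCounts 1.5.0-p3 and mm10 were used, and annotation and strand setting were not given in the sources used here. Reads were recovered as FPKM times merged exon length (GENCODE M21) over the value of 1 read, which differs per library. Values within 0.05 of a whole number were rounded. In every library of the experiment 93.6% of 26020 genes with reads came out whole in total Treg and 100.0% of 21242 in aTreg, among them all 7 Ly6 genes. 105 identifiers without exon length were left out. The implied scaling followed TMM in total Treg cells (log2 factors -0.10 to 0.31 against WT) and total reads in aTreg cells. The study's test on counts needs replicates, so ratios of FPKM were formed on log2(FPKM + 0.01) among genes at 5 CPM in either library and called at 2-fold, without a test. Ratio, interval and TMM code was tested on simulated data. The genes, the rule for naming genes and the marker lists were chosen with earlier results of these data known. Named list genes are at most 4 with the largest fold among those at 5 CPM, except markers of other cells, which were also named, after their values were seen, where they were at 0 reads, low or dominated a sum, and Plaur, Ly6k and the most similar genes (10 for Ly6a, 5 for the others) follow the same fixed rule. Coding sequences come from GENCODE M21, and their alignment was global. The tools were Python 3.11.15, NumPy 2.4.6, pandas 2.3.3, SciPy 1.17.1 and matplotlib 3.10.9.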

Additional observations from a re-analysis of the deposited data

Results flagged for a closer look

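3 Ly6 genes took opposite directions in comparisons of libraries labelled as expressing Brg1 with libraries labelled as deleted, each with a counting interval that did not hold 0. Ly6c1 had a log2 fold of 1.93 in the mosaic females, -2.63 in rKO1 mice after TAM and -1.13 in aTreg cells. Ly6d had -0.36 in the mosaic females and 2.13 in aTreg cells. Ly6e had 0.91 in the mosaic females and -0.82 in aTreg cells. With 1 library per group these differences were not tested. The aTreg values rest on libraries whose Smarca4 order is the reverse of their labels, by 1.23-fold, which cannot decide whether the labels hold. If that pair is read the other way its signs turn. Ly6d, Ly6e and Ly6c1 in aTreg cells then have the same direction as in the mosaic females. Ly6c1 still differs between the mosaic females and rKO1 mice. Ly6a, at 0.76 in aTreg cells as labelled, then goes against its 4.86 in the mosaic females and 1.35 in rKO1 mice after TAM.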

How the results depend on the processing

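No paired analysis was possible because each group has 1 library, and leaving out a replicate was not possible for the same reason. No called Ly6 fold turned its direction or fell below 2-fold under TMM on the recovered reads, total recovered reads or a pseudocount of 1. Ly6e, never called, was near 0 in 3 comparisons and changed sign: with total reads to -0.29 in rKO1 mice after TAM and -0.05 after TAM over untreated, and with TMM to -0.08 in untreated rKO1 over mosaic Brg1-deleted cells. Without the filter on low values the count of Ly6 genes called was 5 rather than 3 for WT over mosaic Brg1-deleted and for untreated rKO1 over mosaic, 4 rather than 2 in rKO1 mice after TAM and 2 rather than 1 for the mosaic Brg1-expressing library over WT. With a 3-fold limit it was 1 rather than 2 in rKO1 mice after TAM, after TAM over untreated, and in aTreg cells. 43 of 51 such counts, likeness included, stayed within 1.5 times. 6 of the 10 genes most like Ly6a remained with log2(FPKM + 1). Leaving the erythroid list out of the aTreg totals, an alternative chosen after seeing the data, gave 2 Ly6 genes as before and log2 folds of 0.79 for Ly6a, -1.10 for Ly6c1 and 2.16 for Ly6d. The count of all genes called, 496 to 2149 over the 8 comparisons, was 7242 to 9786 without a filter, 1313 to 3235 with a filter of 1 FPKM, 229 to 1449 with a pseudocount of 1 and 172 to 936 with a 3-fold limit. Ly6g and Ly6i had at most 8 and 35 reads in a library, so depth limits their values.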
